A study of Mus musculus with 2 samples.

Results

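The genes described here are the heat shock proteins and the Dnaj cochaperones of mouse hematopoietic stem cells (HSC), the rare marrow cells from which every blood lineage descends. Members were all genes whose symbol in the platform annotation starts with Hspa, Hspb, Hspd, Hspe, Hsph, Hsp90, Dnaja, Dnajb or Dnajc and which a probe set names alone. This gave 72 genes of 18193 named genes, on 174 probe sets. RNA of HSC from mice aged 3 months was measured on 2 Affymetrix 3' expression arrays, 1 of cells with the genotype Sirt6 knockout and 1 of wild-type cells. How the Sirt6 allele was disrupted, in which cells, how HSC were sorted and how many animals were pooled was not stated in the labels. With 1 array per genotype there is no replicate, so no SD, p-value or test of the genotype is given, and every difference compares these RNA samples only. The number of arrays limits the precision.

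Hsp70 proteins bind unfolded stretches of other proteins in cycles of ATP hydrolysis. Dnaj proteins, also called Hsp40 or J proteins, deliver clients to Hsp70 and start that hydrolysis, and exchange factors such as Hsp110 release the nucleotide. Hsp90 completes the folding of kinases and receptors, Hspd1 and Hspe1 form the folding chamber of mitochondria, and the small heat shock proteins hold unfolded proteins without ATP. Heat and other protein damage activate Hsf1, which raises the inducible genes, while unfolded proteins in the endoplasmic reticulum (ER) raise the ER chaperones through the unfolded protein response. HSC are known for a low rate of protein synthesis and for sensitivity to misfolded protein.

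The Sirt6 probe set, which bears on the labels, gave a signal of 174 for the cells labelled knockout and 124 for the wild type, a ratio of 1.40. The labels do not say which part of the transcript it covers, so it does not check the genotype. Every direction below rests on the labels. HSC and progenitor genes were present on both arrays: the stem cell factor receptor gene Kit read 1746 on the array labelled knockout and 1709 in wild type, and Slamf1 read 131 and 140.5. Of 10 HSC markers measured, 3 (Procr, Hlf and Mecom) were lower by 1.5-fold or more with the label knockout. The list went both ways, with 5 positive and 5 negative ratios and a median log2 ratio of -0.03. The highest was Cd48 (log2 0.49). Granulocyte markers were higher on that array: 10 of 12 were at least 1.5-fold higher, and their summed signal was 37246 against 23234. Of 5 B cell markers measured, 2 were past 1.5-fold on the higher side, and the summed signal of the 7 on the array was 1218 against 627. Of 4 endothelial and stromal markers measured, 3 were past 1.5-fold on the lower side, and the 10 on the array summed to 476 against 1087. Other lists were mixed in sign: monocyte and macrophage (5 positive, 4 negative), erythroid (1 positive, 5 negative) and megakaryocyte (2 positive, 2 negative). Past 1.5-fold were 1 monocyte and macrophage marker (higher), 1 erythroid marker on each side, and 1 megakaryocyte marker higher and 2 lower. Their summed signals were 3065 against 1958, 5909 against 6118 and 2077 against 1917, in that order. In such bulk RNA, fewer cells of a type and less RNA per cell cannot be told apart.

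Values are MAS5 signals, a linear brightness per probe set. A gene was read from its brightest probe set, and a log2 ratio is the array labelled knockout over wild type. A gene counted as measured when its signal was above a floor of 60.5, the median over all probe sets, on 1 array or both, and lower values were set to the floor. Of the 72 members, 60 were measured: 56 exceeded the floor in both genotypes, 2 in the cells labelled knockout alone and 2 in wild type alone. The other 12 were under the floor on both.

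The heat shock and Dnaj genes read nearly alike on the arrays. None of the 60 measured members was at least 1.5-fold higher on the array labelled knockout, against a background of 1.71% of 11547 measured genes. One, Dnajb2, was at least 1.5-fold lower, against 2.63%. Counts of 0 and 1 among 60 genes lie near those background shares. The median log2 ratio of the members was -0.02, against 0.0023 over all measured genes, and ratios ran from -0.67 to 0.46. Of the members, 38 (63.3%) lay within 0.2 of 0 on the log2 scale, as did 67.8% of all measured genes. Among the 35 members in the brighter part of the measured genes, 24 (68.6%) lay within 0.2, against 78.2% of 5774 genes in that part. The members thus did not hold closer to a ratio of 1 than other genes did.

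**Figure D1:**
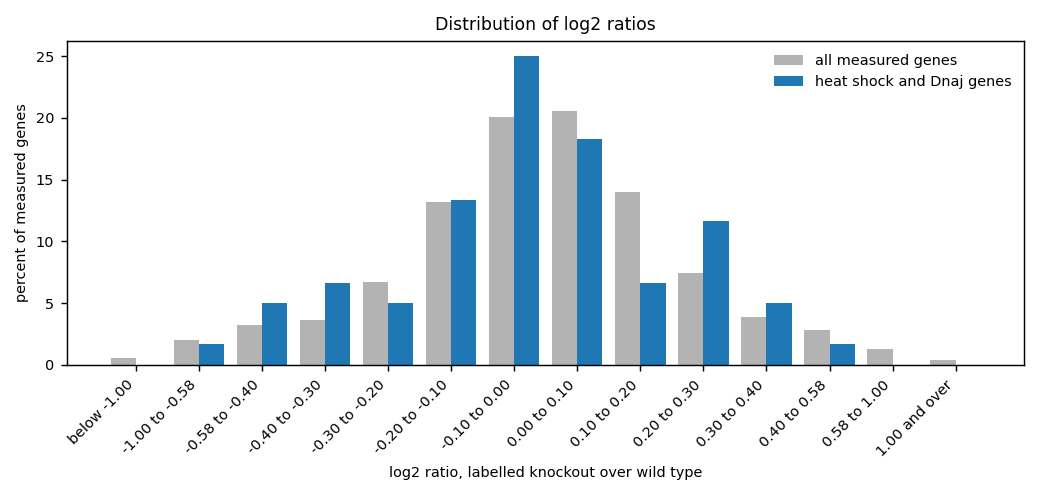
Percent of genes (vertical axis) in each range of the log2 ratio of the array labelled knockout over wild type (horizontal axis), for all 11547 measured genes (grey) and the 60 measured heat shock and Dnaj genes (blue). The blue bars end at 0.46 on the high side, and Dnajb2 at -0.67 is the 1 member past 1.5-fold on the low side.

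Probe sets of a gene sample the same RNA, so their spread is not replication. It holds technical error together with any difference between the transcripts that the probe sets detect. In 4632 genes, 2 or more probe sets exceeded the floor in both genotypes, and among these the SD of the log2 ratio within a gene was 0.22. Over the 34 members with such probe sets it was 0.25. All probe sets of a gene pointed the same way in 18 of these 34 members (52.9%), 7 toward a positive and 11 toward a negative ratio, and in 52.4% of the 4632 genes. The 38 member ratios within 0.2 of 0 were smaller than either SD, as is the limit of 0.2 itself.

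The stress-inducible members were, apart from Hspa1b and Hspb1, lower on the array labelled knockout, and all by less than 1.5-fold. Of 7 measured, 5 had a negative and 2 (28.6%) a positive ratio, where 50.4% of all measured genes had a positive ratio. The median log2 ratio of the 7 was -0.18. Hsph1, the Hsp110 exchange factor of Hsp70, read 895 on the array labelled knockout and 1183 in wild type, a log2 ratio of -0.40, while the second probe set of the gene read -0.16. Dnajb1, the main inducible Hsp40, read 1361 and 1540.2 (log2 -0.18), with -0.05 on its second probe set. Dnaja1, a farnesylated Hsp40 of the cytosol, read 2919 and 3394 (log2 -0.22), and its 3 probe sets ran from -0.27 to -0.18. Dnajb4, a close relative of Dnajb1, read 486 and 579.6 (log2 -0.25), with -0.21 on its second measured probe set. Those 4 genes were each lower on every probe set above the floor.

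Hsp90aa1, the inducible cytosolic Hsp90, read 6155 on the array labelled knockout and 6336 in wild type, a log2 ratio of -0.04. Its 4 probe sets above the floor all gave negative ratios, down to -0.52, so the size but not the sign depended on the probe set. Hspa1b, the classical inducible Hsp70, went the other way, with 401 against 346 (log2 0.22), and its 3 probe sets ran from 0.09 to 0.22. Hspb1, the small heat shock protein Hsp27, read 78.0 against 65.05 (log2 0.26), close to the floor. Hspa1a, a near-identical copy of Hspa1b, was under the floor at 49.9 and 43.7, and because the copies share most of their sequence their signals are uncertain.

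The promoters of a few members are shown because Hsf1 acts on inducible genes through the heat shock element it binds. Sequences of 250 bases before to 50 bases after the transcription start came from RefSeq (GRCm38.p6), where 59 of the 72 members had 76 windows. Both strands were searched for GAANNTTC and TTCNNGAA, each a pair of inverted GAA units of the heat shock element. A longer form of 3 units, chosen after the values were seen, was also searched. It is GAANNTTC followed directly by NNGAA, which contains both pairs. GAANNTTC was found in 21.1% of the member windows and 7.86% of all 32851 windows, and TTCNNGAA in 10.5% and 8.52%. The longer form was found in 7.89% of member windows and 0.603% of all, and marked 4 members: Hsph1, Dnajb6, Hspd1 and Hspe1. Of these only Hsph1 was listed as stress-inducible, so the longer form did not define that group. Among the other stress-inducible members, Dnaja1, Hspa1a, Hspa1b and Hspb1 held GAANNTTC, Dnajb4 held TTCNNGAA, and Dnajb1 held neither. Each window below is printed 5′ to 3′ on the gene's strand, with the longer form in capitals. They lie at chr5:149636287-149636586 (minus strand) for Hsph1, chr1:55087898-55088197 (plus strand) for Hspe1 and chr5:29735648-29735947 (plus strand) for Dnajb6.
Hsph1: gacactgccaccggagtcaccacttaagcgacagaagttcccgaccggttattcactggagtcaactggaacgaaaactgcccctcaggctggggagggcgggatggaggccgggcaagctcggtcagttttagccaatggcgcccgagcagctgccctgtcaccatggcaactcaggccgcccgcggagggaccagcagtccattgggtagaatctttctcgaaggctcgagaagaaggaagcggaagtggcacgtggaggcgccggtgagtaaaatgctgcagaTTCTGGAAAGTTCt
Hspe1: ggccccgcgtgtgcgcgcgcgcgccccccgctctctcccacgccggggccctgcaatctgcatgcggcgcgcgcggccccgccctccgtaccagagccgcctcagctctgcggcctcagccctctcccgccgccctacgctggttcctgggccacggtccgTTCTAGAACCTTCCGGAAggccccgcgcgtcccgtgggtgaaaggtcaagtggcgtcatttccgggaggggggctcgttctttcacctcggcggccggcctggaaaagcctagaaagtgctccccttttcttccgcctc
Dnajb6: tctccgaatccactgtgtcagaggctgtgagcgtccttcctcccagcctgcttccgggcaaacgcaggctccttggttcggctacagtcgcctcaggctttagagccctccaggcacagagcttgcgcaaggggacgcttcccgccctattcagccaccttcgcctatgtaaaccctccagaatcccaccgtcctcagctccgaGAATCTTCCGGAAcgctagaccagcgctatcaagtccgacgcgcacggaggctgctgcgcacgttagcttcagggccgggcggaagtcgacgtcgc

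Counted from 1 at the 5′ end of the window, the capitals cover bases 287 to 299 for Hsph1, 162 to 179 for Hspe1, where a pair of matches overlap, and 205 to 217 for Dnajb6. The Hspe1 window shares 285 bases with a window of Hspd1 on the opposite strand, so the element between these neighbouring genes is the same one. The 4 members with the longer form had log2 ratios of -0.40 (Hsph1), -0.05 (Dnajb6), -0.04 (Hspe1) and -0.0045 (Hspd1), all under 1.5-fold. Over the 49 other measured genes with the longer form the median log2 ratio was 0.02, and 30 had a positive ratio. Directions among genes with the element were therefore mixed.

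**Figure D2:**
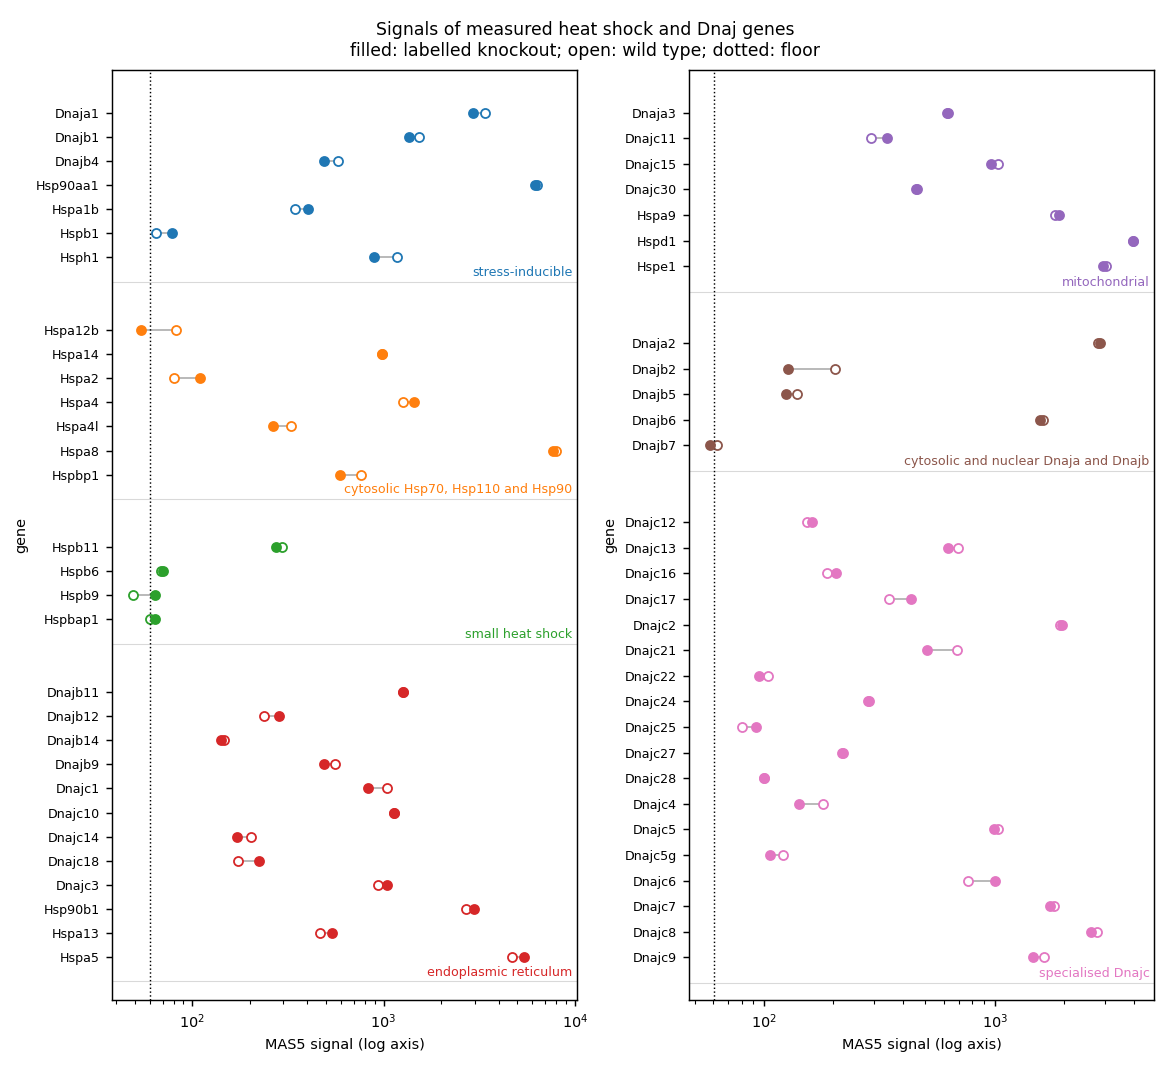
MAS5 signal (horizontal log axis) of each measured member (rows, grouped and colored by role) on the array labelled knockout (filled) and the wild-type array (open), with 1 array each and the floor of 60.5 dotted. The points of a gene lie close together, and the gap is wide for Dnajb2 (127 against 202).

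Among the other cytosolic Hsp70 and Hsp110 proteins, 0 of 7 measured members reached a 1.5-fold difference, and the median log2 ratio was -0.06. Hspa8, the constitutive Hsp70 (Hsc70), read 7670.4 on the array labelled knockout and 7977 in wild type (log2 -0.06), and its 4 probe sets ran from -0.45 to 0.05. Hspa4 and Hspa4l, exchange factors of the Hsp110 family, had log2 ratios of 0.20 and -0.31, and their probe sets disagreed in sign. Hspa2, an Hsp70 best known from sperm development, read 110.2 against 80.3 (log2 0.46), the highest ratio of any measured member. It rests on 1 dim probe set. With a pseudocount of 1 floor it was 0.28, below Dnajc6 at 0.36. Hspbp1, which strips nucleotide from Hsp70, read 595 against 760.1 (log2 -0.35). Hspa12b, a distant Hsp70 relative of endothelial cells, read 82.4 in wild type and fell short of the floor at 54.2 in the cells labelled knockout, at least 1.36-fold lower. On the same array the endothelial and stromal markers Emcn (62.5 against 176), Sparc (93.4 against 169.5) and Cxcl12 (57.4, under the floor, against 461) were lower and Kdr read 107 against 119. Their part in the Hspa12b value was not tested. Hspa14, a partner of a ribosome-bound J protein, read 986 and 982. Hspa12a and the sperm form Hspa1l did not reach the floor in either genotype, and Hsp90ab1, the constitutive Hsp90, was not analysed here.

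Of the 8 other small heat shock genes and relatives by name, 4 were measured, and of these Hspb11 stood well above the floor. The muscle genes Hspb2, Hspb3, Hspb7 and Hspb8 gave signals under the floor in both genotypes. Hspb6 read 70.1 against 68.4. Hspb9, a testis gene, and Hspbap1, which binds Hspb1, crossed the floor only on the array labelled knockout, at 63.9 each against 49.2 and 59.9. Against the floor each was at least 1.06-fold higher. Hspb11 carries the family name but is a part of the transport machinery of cilia, and it read 275 against 295 (log2 -0.10).

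The ER members had more positive than negative ratios, all under 1.5-fold. All 12 were measured, 8 (66.7%) with a positive and 4 with a negative ratio, where 50.4% of all measured genes had a positive ratio. The median log2 ratio of the ER members was 0.08. In 10 of them, 2 or more probe sets were above the floor on both arrays. All of these probe sets were positive in 3 members and negative in 1. When each gene was read as the median over its probe sets, the median of the ER members turned to -0.064. Hspa5, the ER Hsp70 also called BiP, read 5426 on the array labelled knockout and 4716 in wild type (log2 0.20), and its other probe sets gave 0.26 and 0.36. Dnajc3, a cochaperone of BiP that also inhibits the kinase Eif2ak3, read 1047 against 932 (log2 0.17), and its 5 probe sets ran from 0.04 to 0.42. Dnajc10, a J protein with reductase activity, read 1139.7 against 1128 (log2 0.02), with its other probe sets at 0.18 and 0.27. These 3 genes were higher on every probe set above the floor.

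Other ER members were less clear. Hsp90b1, the ER Hsp90 (Grp94), read 2972 against 2706 on its brightest probe set (log2 0.14) and 976 against 1772 on its second (log2 -0.86). Hspa13, a small ER Hsp70, read 538 against 466 (log2 0.21), but its next probe set read 87.2 against 195 (log2 -1.16), and another read 92.2 in wild type and 30.1, under the floor, in the cells labelled knockout. Thus 2 of its 3 probe sets above the floor on any array went against the brightest. Those were the widest disagreements among the members, and which probe set follows the main transcript was not stated. Dnajc1, a J protein of the ER membrane, read 832 against 1038 (log2 -0.32), with its other probe sets between -0.39 and 0.03. Dnajb9 and Dnajb11, soluble J proteins of the ER, had log2 ratios of -0.18 and 0.0082. Of the membrane-bound Dnajb12, Dnajb14, Dnajc14 and Dnajc18, Dnajc18 read 223 against 174 (log2 0.36) and -0.29 on its second probe set, and Dnajb12 gave 0.25 and -0.30. Dnajb14 gave -0.05 and -0.59, and Dnajc14 gave -0.23 and 0.02.

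The ER stress element, a CCAAT box spaced 9 bases from CCACG, is where the unfolded protein response acts on ER chaperone genes. CCAAT was found on either strand in 38.2% of member windows and 37.4% of all windows, and CCACG in 53.9% and 32.8%. The joined form, CCAAT and CCACG with exactly 9 bases between them, searched on both strands and chosen after the values were seen, was found in 39 of 32851 windows (0.119%) and in 3 of the 76 member windows (3.95%). It marked Hspa5, Hsp90b1 and Dnajc3, and their windows are printed for that reason, with the joined form in capitals. They lie at chr2:34771840-34772139 (plus strand) for Hspa5, chr10:86705395-86705694 (minus strand) for Hsp90b1 and chr14:118937682-118937981 (plus strand) for Dnajc3.
Hspa5: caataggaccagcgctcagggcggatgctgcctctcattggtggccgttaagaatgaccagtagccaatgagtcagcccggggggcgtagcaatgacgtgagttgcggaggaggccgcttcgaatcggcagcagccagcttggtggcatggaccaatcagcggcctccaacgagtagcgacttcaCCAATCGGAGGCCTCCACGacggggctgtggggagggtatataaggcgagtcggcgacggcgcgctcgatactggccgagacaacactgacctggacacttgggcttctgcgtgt
Hsp90b1: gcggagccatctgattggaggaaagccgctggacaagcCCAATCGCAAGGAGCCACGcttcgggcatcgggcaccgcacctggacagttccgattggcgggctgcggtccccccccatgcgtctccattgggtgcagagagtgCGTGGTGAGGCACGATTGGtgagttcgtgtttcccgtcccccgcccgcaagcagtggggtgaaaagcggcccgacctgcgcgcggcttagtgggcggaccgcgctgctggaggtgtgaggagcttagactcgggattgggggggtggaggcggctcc
Dnajc3: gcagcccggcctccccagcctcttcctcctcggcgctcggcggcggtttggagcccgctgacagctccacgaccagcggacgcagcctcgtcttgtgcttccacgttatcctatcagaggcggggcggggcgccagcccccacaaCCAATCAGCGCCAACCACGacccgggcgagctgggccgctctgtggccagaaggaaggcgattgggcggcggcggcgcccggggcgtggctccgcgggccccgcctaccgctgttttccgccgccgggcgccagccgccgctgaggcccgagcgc

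Hsp90b1 held the joined form at bases 39 to 57 and, on the other strand, at bases 144 to 162 of its window. Hspa5 held it at bases 186 to 204 and Dnajc3 at bases 146 to 164. The 3 genes had log2 ratios of 0.20 (Hspa5), 0.14 (Hsp90b1, brightest probe set) and 0.17 (Dnajc3). Of the 10 other measured genes with the joined form, 7 had a positive ratio, with a median log2 ratio of 0.05, where 50.4% of all measured genes had a positive ratio and the median was 0.0023.

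**Figure D3:**
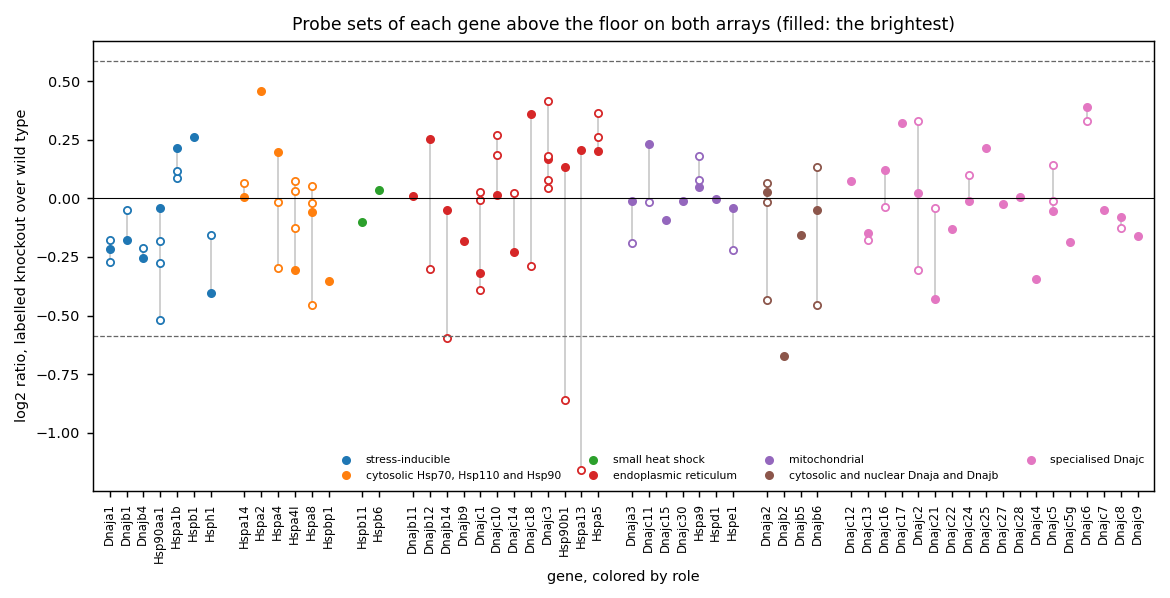
Log2 ratio of the array labelled knockout over wild type (vertical axis) for every probe set above the floor on both arrays, by gene (horizontal axis, colored by role); filled points are the brightest probe set of a gene, and dashed lines mark 1.5-fold. The points of Hspa5 and Dnajc3 lie above 0 and those of Dnaja1, Dnajb4 and Hsph1 below it, while the open points of Hsp90b1 (-0.86) and Hspa13 (-1.16) lie far from their filled ones.

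The mitochondrial chaperones had ratios close to 1. Of 7 measured, 0 reached a 1.5-fold difference, with a median log2 ratio of -0.0093. Hspd1 (Hsp60) read 3968 on the array labelled knockout and 3980.0 in wild type, and its cap Hspe1 (Hsp10) read 2953 and 3036 (log2 -0.04), with -0.22 on its second probe set. Hspa9, the mitochondrial Hsp70 called mortalin, read 1896 and 1832 (log2 0.05), and its 3 probe sets ran from 0.05 to 0.18. Dnaja3, the J protein of the matrix, read 621 and 626 (log2 -0.01). Dnajc11, of the inner membrane organising complex, read 342 against 291 (log2 0.23), with -0.01 on its second probe set. Dnajc15, a J protein of the protein import motor, had a log2 ratio of -0.09 and Dnajc30, linked to complex I turnover, of -0.0093.

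Of the 9 remaining Dnaja and Dnajb genes, 5 were measured, with a median log2 ratio of -0.05. Dnajb2, which carries ubiquitin-interacting motifs and sends Hsp70 clients to the proteasome, was the 1 member past 1.5-fold. It read 127 on the array labelled knockout and 202 in wild type, 1.60-fold lower (log2 -0.67), on a single probe set, so no second probe set bears on the value. With a pseudocount of 1 floor its log2 ratio was -0.49, short of 1.5-fold, and with the floor at percentile 75 it was not measured. Dnaja2, a general Hsp40, read 2853 against 2803 (log2 0.03), and its 4 probe sets ran from -0.44 to 0.06. Dnajb6, which suppresses protein aggregation, read 1572 against 1625 (log2 -0.05), and its 3 probe sets above the floor ran from -0.45 to 0.14. Dnajb5 had a log2 ratio of -0.16 on its brightest probe set, while its second read 80.5 against 58.1, the latter under the floor. Its direction therefore turned with the probe set, to 0.13 as the median over probe sets and 0.41 without probe sets ending in _x_at or _s_at. Dnajb7 was above the floor only in wild type (62.4 against 58.6), and Dnaja4, Dnajb3, Dnajb8 and Dnajb13 were under it on both arrays.

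The remaining Dnajc genes are those not listed above with the ER or the mitochondria. That grouping followed a list and not measured location, so some of them may act in those compartments. Of these 19 genes, 18 were measured. None was at least 1.5-fold different, 7 had a positive and 11 a negative ratio, and the median log2 ratio was -0.04. Dnajc21, needed for maturation of the large ribosomal subunit, read 509 on the array labelled knockout and 685 in wild type (log2 -0.43), with -0.04 on its second probe set. Dnajc6, auxilin, which uncoats clathrin vesicles, read 999.8 against 764 (log2 0.39), with 0.33 on its second probe set. Dnajc4 read 142 against 181 (log2 -0.34), and Dnajc17, a nuclear J protein, 434 against 347 (log2 0.32). Dnajc2, the ribosome-bound partner of Hspa14, read 1947 against 1915 (log2 0.02), although its probe sets ran from -0.30 to 0.33. Dnajc9, a histone chaperone, had a log2 ratio of -0.16, Dnajc7 of -0.05, the splicing-linked Dnajc8 of -0.08, and the endosomal Dnajc13 of -0.15. Dnajc5, the cysteine string protein of vesicles, read 996 and 1033 (log2 -0.05). The ratios of Dnajc5g, Dnajc12, Dnajc16, Dnajc22, Dnajc24, Dnajc25, Dnajc27 and Dnajc28 ran from -0.19 to 0.21, and Dnajc5b was under the floor.

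Other folding genes, in lists that share no gene with the members, gave the setting. Of 21 measured genes of ER folding and the unfolded protein response, 16 (76.2%) had a positive ratio, against 50.4% of all measured genes, and 0 were at least 1.5-fold different, with a median log2 ratio of 0.13. The BiP-complex cochaperone Sdf2l1 read 1000.1 against 764 (log2 0.39) and Edem1, of ER-associated degradation, 558 against 428 (log2 0.38). Of 16 exchange factors and cochaperones of Hsp70, 10 had a positive ratio and the median was 0.04. They were led by the ER exchange factor Hyou1 (log2 0.31, and 1.23 on its second probe set) and by Bag5, whose probe sets disagreed (log2 -0.21 on the brightest and 0.46 on the second). On the brightest probe sets the ER values were thus small and mostly on one side. As the median over probe sets, the ER members had a median of -0.064, and the ER list was not read that way. Granulocyte markers were also higher on the array labelled knockout (all 12 positive, median log2 ratio 0.78). B cell markers had a positive ratio in 5 of 5 measured cases (median 0.54), and endothelial and stromal markers in 0 of 4 (median -1.18). The part of these cell types in the ER values was not tested.

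Among 14 cochaperones of Hsp90, 1 was at least 1.5-fold lower and 0 higher, with a median log2 ratio of -0.00056. Ttc4 read 128 against 291 (log2 -1.18, and -1.25 on its second probe set), and Fkbp5, a glucocorticoid-induced immunophilin, 1405 against 1033 (log2 0.44). The cytosolic chaperonin and prefoldin genes stayed within 1.5-fold in 14 of 14 cases, with a median of -0.0016 and the largest ratios in Pfdn1 (log2 -0.26) and Cct7 (log2 -0.17). Of 10 genes of mitochondrial folding and proteolysis 0 were past 1.5-fold, with a median of 0.02, and Clpb (log2 -0.38) and Lonp1 (log2 0.29) led them. Of the Hsf list, Hsf4 (log2 0.21) and the Hsf-binding Hsbp1 (log2 -0.22) were measured, Hsf2 and Hsf5 were under the floor, and Hsf1 was not analysed here. Of 14 measured immediate early genes, which respond to cell handling, 1 was at least 1.5-fold lower and 0 higher, with a median of 0.08. The list went both ways, with 8 positive and 6 negative ratios. The largest ratios were negative: Egr1 read 887 against 1464 (log2 -0.72), Fos 3010.3 against 4130.0 (log2 -0.46) and Dusp1 1473 against 1928 (log2 -0.39). Fosb had a log2 ratio of 0.33 and Ier3 of 0.22. The part of these genes in the values of the inducible members was not tested.

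**Figure D4:**
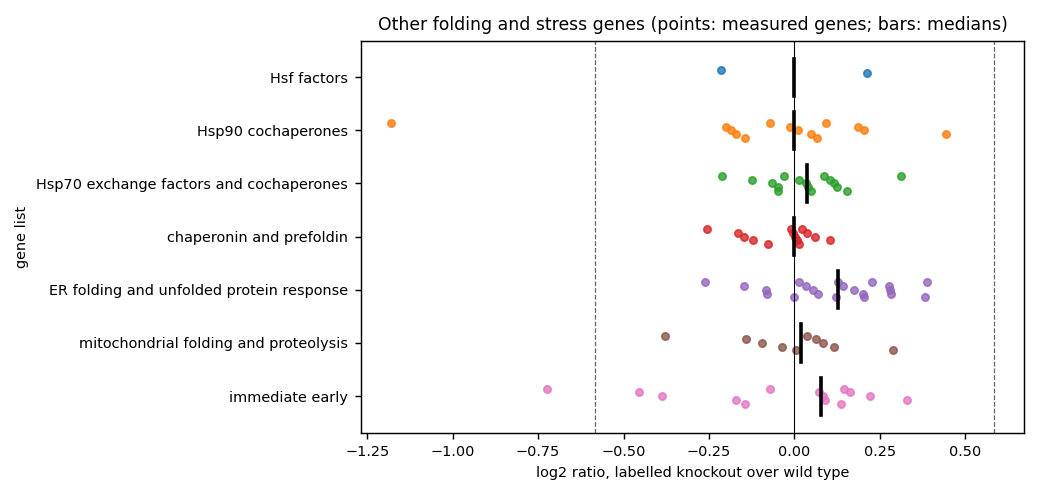
Log2 ratio of the array labelled knockout over wild type (horizontal axis) for measured genes (points) of 7 lists of other folding and stress genes (rows), with the list median as a black bar and 1.5-fold as dashed lines. The ER list lies mostly right of 0 with its median at 0.13, and Ttc4 (-1.18) and Egr1 (-0.72) are the points past 1.5-fold.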

How the data were processed

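The deposited table holds a linear signal intensity for each of 45037 probe sets and 2 arrays, and the authors made it with MAS5 per the submitters' processing notes. Its version, scaling target and detection calls were not stated. Median signals were 60.7 (labelled knockout) and 60.8 (wild type), so the deposited values were taken without rescaling and log2-transformed. In the platform annotation 34945 probe sets named 1 gene, 932 several and 9160 none. All 72 members matched a RefSeq record (GRCm38.p6) by Entrez identifier, with 0 symbols changed. A gene was read from its brightest probe set, with a floor at percentile 50 of mean log2 signal. Genes were counted at 1.5-fold. Members, roles, lists and the rule for named genes were chosen with earlier results of these data known. The rule named the main chaperones, members past 1.5-fold, the 3 largest ratios of a role, the 2 largest of a list, and members whose probe sets point in opposite directions by over 0.5 (log2). Members outside it are named so that each of the 72 is accounted for. The marker genes named, Dusp1, Fosb and Ier3 were chosen after their values were seen. Alternatives were other normalizations (quantile, median, loess with span 0.3), floors, a pseudocount, other handling of probe sets, and 2-fold. The counting was tested on simulated data whose planted differences lay well past 1.5-fold, so the test does not bear on ratios near that size. A planned search of protein sequences was not run. Python 3.11.15, numpy 2.4.6, pandas 2.3.3, statsmodels 0.14.6 and matplotlib 3.10.9 were used.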

Additional observations from a re-analysis of the deposited data

How the results depend on the processing

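No paired analysis was possible because each genotype had 1 array, and no array could be left out. The count of members at least 1.5-fold higher was 0 under all 10 alternatives, while the share over all genes ran from 0.398% at 2-fold to 5.42% with no floor. The count at least 1.5-fold lower was 1 in the values above. It was 2 with the floor at percentile 25 (2.98% of all genes) or with no floor (3.81%), where Hspa12b (log2 -0.60) joined, and 2 with the median over probe sets (2.41%), where Hspa13 (log2 -0.61) joined. It was 0 with the floor at percentile 75 (1.29%), which left Dnajb2 unmeasured, with a pseudocount of 1 floor (1.39%; Dnajb2 log2 -0.49) and at 2-fold (0.572%). The median log2 ratio of the ER members went to -0.064 with the median over probe sets, where Hsp90b1 became -0.36, and that of the small heat shock genes to -0.10 with the floor at percentile 75, which left Hspb11 alone. The log2 ratio of the cytosolic Dnajb5 turned to 0.13 with the median over probe sets. Of the other 84 values of counts and medians, counts moved by no more than 1.5 times. Medians moved by less than the spread between probe sets scaled down by the square root of the number of genes. The median of the stress-inducible members stayed negative, from -0.22 to -0.11, under the 9 alternatives run on it. Of 288 ratios of named members, 279 moved by less than 0.22. Many of these could not move, because a change of floor leaves the ratio of a bright gene as it is. The 9 that moved were those of Hspb9 with a lower floor or none, and those of 6 genes under other handling of probe sets. These were Dnajb12, Dnajb5, Dnajc18, Hsp90b1, Hspa13 and Dnajc2. Dim genes are limited by the floor: the 12 members under it on both arrays have no ratio.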

Other observations

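Dnajc19, a J protein of the mitochondrial import motor, was left out of the members because each of its 3 probe sets also names a pseudogene. The brightest of them read 656 on the array labelled knockout and 641 in wild type (log2 0.03), the next 118 and 129 (log2 -0.13), and the last was under the floor on both arrays at 28.4 and 23.9.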
